A study of Mus musculus with 42 samples.

Results

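Cyp26a1, which encodes a cytochrome P450 that clears retinoic acid, and Rara, Rarb and Rarg, which encode the retinoic acid receptors alpha, beta and gamma, were followed on cDNA arrays of mouse liver. They are the 4 of 277 mouse genes on the array whose probe carries one of these names or a synonym of it, whatever the case of the letters: Cyp26a1 under its own symbol, and the receptors as Nr1b1, Nr1b2 and Nr1b3. Each has 1 probe, spotted 3 times on an array. Liver RNA of single female C57BL/6 mice (left lateral lobe) was labelled with Cy3 and hybridized against a reference pool labelled with Cy5. A level is therefore a log2 ratio of the mouse to its pool, and a difference between groups is a difference of such ratios.

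The mice had been killed 24 h after an intraperitoneal injection. TCPOBOP (3 mg/kg) activates the constitutive androstane receptor (CAR) of mice, PCN (40 mg/kg) activates their pregnane X receptor (PXR), and the vehicle was corn oil. On reference pool 1, a mix of all samples, there were 6 vehicle and 6 TCPOBOP mice on standard diet, and 5 vehicle, 6 TCPOBOP and 6 PCN mice that had eaten a diet with 1% cholesterol for 1 week. On reference pool 3, a mix of vehicle and PCN samples of the standard diet, there were 5 vehicle and 6 PCN mice on standard diet. Each level is relative to its own pool, so the pools were kept apart. Mice were 19 weeks old in the vehicle groups and in the TCPOBOP group on standard diet. They were 18 weeks old for TCPOBOP and 16 weeks old for PCN on cholesterol diet, so that age and treatment cannot be told apart there, and 18 to 19 weeks old for PCN on standard diet. The comparisons on reference pool 1 share groups of mice.

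Retinol is oxidized to retinoic acid, which acts as the ligand of the retinoic acid receptors. These receptors bind DNA as heterodimers with the retinoid X receptors (RXR), typically on direct repeats of a 6-base motif, and recruit co-repressors or co-activators. Cyp26a1 hydroxylates retinoic acid and so removes the ligand. Cyp26a1 and Rarb are textbook targets of the receptors themselves, with retinoic acid response elements close to their transcription start, while the liver is the main store of vitamin A, held largely in stellate cells.

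The stretches that bear on this are shown because these 2 genes are the ones that changed with treatment. In RefSeq promoter windows of GRCm38.p6, which run from 250 bases before to 50 bases after a transcript's start, a direct repeat with 5 bases between its 6-base motifs (DR5) was searched on both strands. The motif could take any of 4 forms at either place, AGGTCA or AGTTCA or GGGTCA or GGTTCA. Each stretch is written 5′ to 3′ with the repeated motifs in capitals. That of Cyp26a1 lies on the minus strand, opposite to the gene, at chr19:37697769-37697798, and that of Rarb on the minus strand, the strand of the gene, at chr14:16575506-16575535.
Cyp26a1: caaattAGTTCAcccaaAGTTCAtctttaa
Rarb: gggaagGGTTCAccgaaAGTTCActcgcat
The Cyp26a1 repeat lay 32 to 16 bases and the Rarb repeat 53 to 37 bases before the start of the window's transcript. Over the 17 bases of the repeat, 15 were identical between them. The Rarb repeat stands in the following 120 bases that end at the transcript start (chr14:16575477-16575596, minus strand).
Rarb: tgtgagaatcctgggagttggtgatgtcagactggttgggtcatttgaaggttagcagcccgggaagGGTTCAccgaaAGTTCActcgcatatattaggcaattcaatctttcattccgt

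A DR5 of this form was found in 32 of 32851 RefSeq windows (0.0974%), and of the 206 genes of the array with a window 2 held one (0.971%), Cyp26a1 and Rarb. All 4 genes had a window. Neither the 4 windows of Rara nor the 2 windows of Rarg held these letters with a spacing of 5, and no window of the 4 genes held the motifs with 1, 2, 3 or 4 bases between them. Those spacings occurred in 0.222%, 0.268%, 0.0396% and 0.0822% of all windows. A match of letters is a description of the sequence and says nothing of a site in use, nor does a missing match. On GRCm38.p6 Cyp26a1 spans chr19:37697738-37701536, Rara chr11:98927800-98974942, Rarb chr14:16430839-17082331 and Rarg chr15:102234938-102257522. Which exons the array's cDNA probes cover was not given in the sources used here, so the values cannot be assigned to a transcript isoform.

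The 29 arrays of reference pool 1 had a median signal of 164 to 300.7 and 62.0% to 79.6% of their probes above background, against 23.19 to 142.8 and 52.5% to 69.7% on the 11 arrays of reference pool 3. A probe was counted as above background where its mean intensity exceeded the local background median by 2 SDs on most of its spots. Cyp2b10, a P450 induced through CAR, rose with TCPOBOP by 2.98 (SE 0.15, adjusted p = 1.1e-12, limma) on standard and 3.15 (adjusted p = 9.25e-13, limma) on cholesterol diet. Cyp3a11, a P450 induced through PXR, rose with PCN by 0.99 (adjusted p = 0.0283, limma) on standard diet, and its difference of 0.92 on cholesterol diet had an adjusted p of 0.104. Of 406 pairs of arrays on reference pool 1, 140 had a correlation under -0.3 over the genes (lowest -0.674), each of them between a TCPOBOP array and a vehicle or PCN array; the direction of the ratios was kept, as the dyes are stated. Of 15 hepatocyte markers 12 are on the array and were above background on most arrays, while no listed marker of stellate, endothelial, bile duct or blood cells or of macrophages is on it.

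TCPOBOP raised Cyp26a1 about 3.6-fold on both diets, also raised Rarb on both, from a vehicle level near or below background, and gave no called change of Rara on either. Rarg was not well above background on any array. PCN left no called change in any of the 4 genes on either diet.

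Cyp26a1 was above background on all 29 arrays of reference pool 1. In vehicle mice on standard diet its log2 ratio was -1.04 at the lowest, -0.76 at the median and -0.59 at the highest, with a mean of -0.78 ± 0.16 (SD, n = 6). In TCPOBOP mice on standard diet it was 0.21 at the lowest, 1.11 at the median and 2.00 at the highest, with a mean of 1.07 ± 0.60 (SD, n = 6). Every TCPOBOP mouse lay above every vehicle mouse, and the TCPOBOP mice lay farther apart from one another than the vehicle mice did. The signal above local background was 104.4 to 248.6 in the vehicle mice and 412.1 to 1963.8 in the TCPOBOP mice, so the groups did not overlap in the unnormalized sample channel either.

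The difference was 1.85 on the log2 scale (SE 0.21, 95% interval 1.41 to 2.29, adjusted p = 3.01e-07, limma), or 3.6-fold (2.65 to 4.9). In this comparison 61 of 277 genes were called higher (22%) and 59 lower (21.3%), and for 40 genes (14.4%) every TCPOBOP mouse lay above every vehicle mouse. Cyp26a1 ranked 5 of 277 by the size of the increase. Liver RNA of whole tissue was measured, so fewer cells of a type and less RNA per cell cannot be told apart here or in any result that follows. The scanner files give spot positions in micrometres for 2 and in millimetres for 4 arrays of each of these groups. The micrometre arrays alone gave 1.41 (adjusted p = 0.0314, limma) and the millimetre arrays alone 2.07 (adjusted p = 4.01e-06, limma).

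On cholesterol diet the 5 vehicle mice had Cyp26a1 log2 ratios of -1.08, -1.38, -1.13, -0.87 and -1.37, with a mean of -1.17 ± 0.21 (SD, n = 5). TCPOBOP mice on this diet had 0.13 at the lowest, 0.66 at the median and 1.18 at the highest, with a mean of 0.68 ± 0.39 (SD, n = 6). The groups again did not overlap on the arrays used. The authors' deposited log2 ratios also cover vehicle replicate 2, whose scanner values were not used here. There it had -0.301, above TCPOBOP replicate 3 with -0.327, so on that scale the groups overlapped. TCPOBOP raised the gene by 1.85 (SE 0.22, 95% interval 1.39 to 2.31, adjusted p = 6.94e-07, limma), or 3.61-fold (2.62 to 4.97), rank 7 of 277. Here 64 genes were called higher (23.1%) and 40 lower (14.4%), and 30 lay higher in every TCPOBOP mouse than in every vehicle mouse (10.8%). The 1 micrometre array of the vehicle group and the 2 of the TCPOBOP group gave 1.82 (adjusted p = 0.0359, limma), and the millimetre arrays 1.85 (adjusted p = 1.36e-05, limma).

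**Figure D1:**
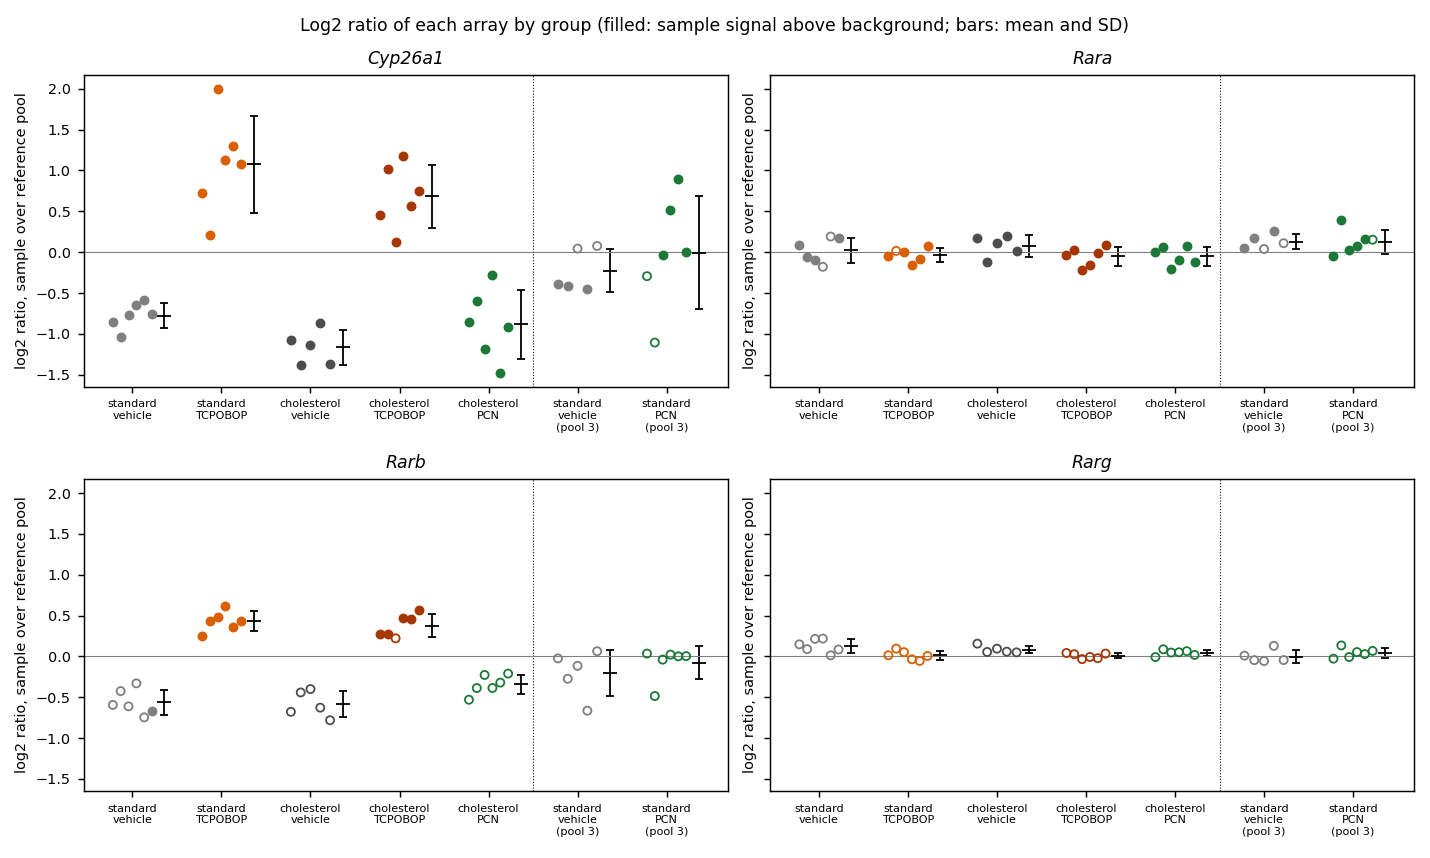
Log2 ratio of the mouse sample to its reference pool (vertical axis) for Cyp26a1, Rara, Rarb and Rarg, 1 panel a gene, with 1 point an array, filled where the probe was above background and open where it was not, and bars for the group mean ± SD. The 12 TCPOBOP arrays lie above the 17 other arrays of reference pool 1 for Cyp26a1 and Rarb, Rara lies near 0 throughout, and every Rarg point is open; the 2 groups of reference pool 3 are drawn apart.

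Rarb, the receptor gene that retinoic acid is known to induce, was dim. In vehicle mice on standard diet its log2 ratio was -0.75 at the lowest, -0.60 at the median and -0.33 at the highest (mean -0.56 ± 0.16, SD, n = 6), and only 1 of 6 arrays was above background. In TCPOBOP mice on standard diet it was 0.25 at the lowest, 0.43 at the median and 0.62 at the highest (mean 0.43 ± 0.12, SD, n = 6), and 6 of 6 arrays were above background. No TCPOBOP mouse overlapped the vehicle mice, and the signal above local background was 25.4 to 71.6 in vehicle and 100 to 172 in TCPOBOP mice.

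TCPOBOP raised Rarb on standard diet, with a fitted difference of 0.99 (SE 0.083, 95% interval 0.82 to 1.16, adjusted p = 2.45e-09, limma). The size is not fixed by these arrays, as 5 of 6 vehicle arrays were below background: with the background plainly subtracted it was 1.75, outside that interval. No fold is therefore given. With 2 arrays a group in micrometres the difference was 0.85 (adjusted p = 0.0108, limma), and with 4 a group in millimetres 1.06 (adjusted p = 2.86e-06, limma). Of the 83 genes that were above background on at most 1 vehicle array, 13 were called higher and 10 lower, with a median difference of -0.0055.

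On cholesterol diet the 5 vehicle mice had Rarb log2 ratios of -0.68, -0.44, -0.40, -0.63 and -0.78, none of them above background. TCPOBOP mice had 0.22 at the lowest, 0.37 at the median and 0.57 at the highest (mean 0.38 ± 0.14, SD, n = 6), with 5 of 6 arrays above background. Since the vehicle level has only an upper bound, the increase is given as at least 1.32-fold, a bound between group means that was not itself tested. The TCPOBOP mean of the normalized log2 sample signal was 7.40, the vehicle mean was 6.71, and the lowest signals of probes above background on the vehicle arrays averaged 7.003. The fitted difference of the log2 ratios was 0.96 (SE 0.087, adjusted p = 8.69e-09, limma). It was 0.95 within the micrometre arrays (adjusted p = 0.0176, limma), 0.99 within the millimetre arrays (adjusted p = 5.47e-06, limma), and 1.81 with plain subtraction. Of 74 genes above background on at most 1 vehicle array here, 9 were called higher and 3 lower.

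**Figure D2:**
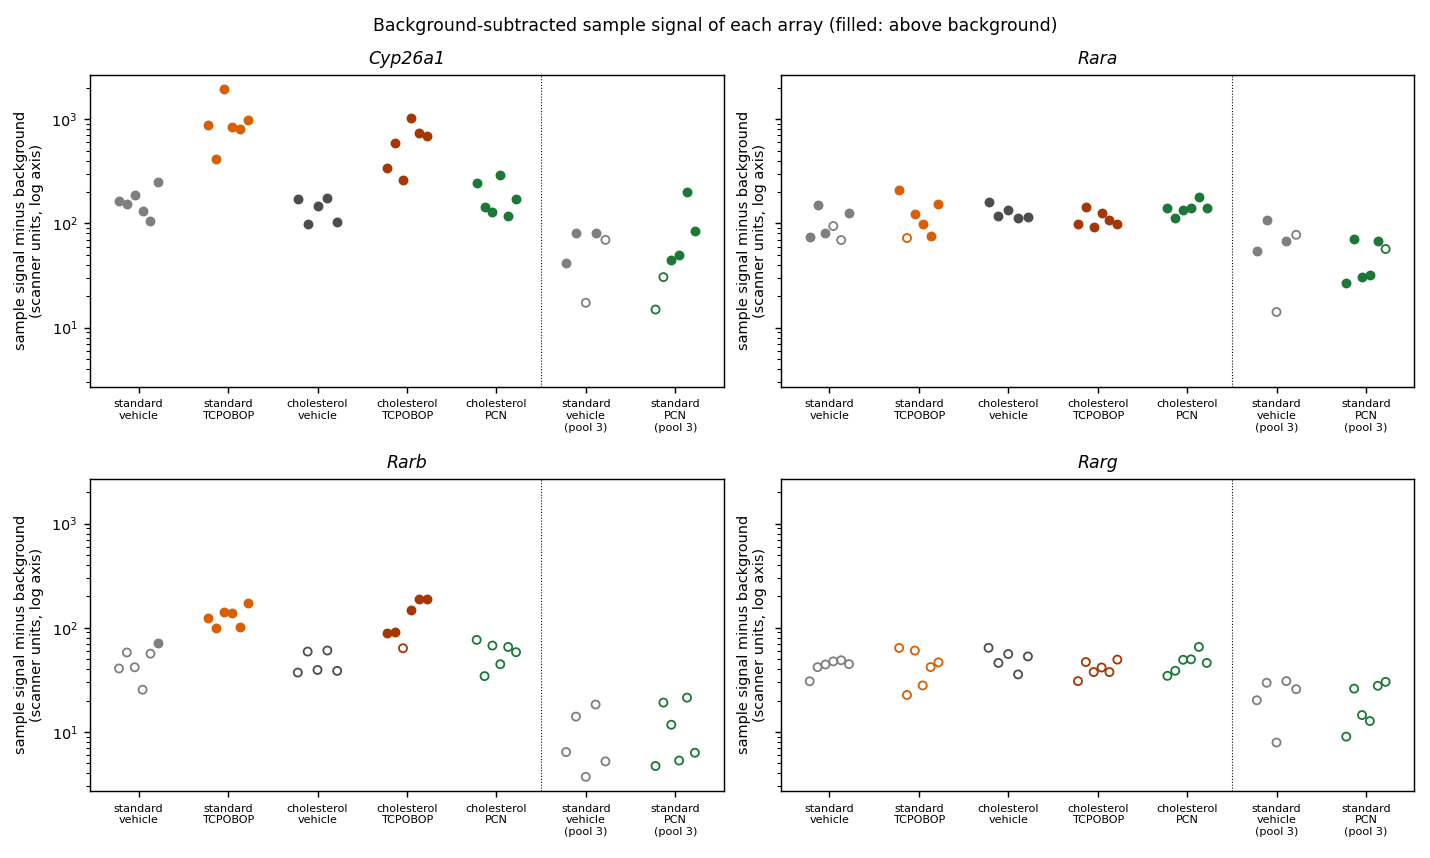
Sample signal above local background (vertical axis, log scale, scanner units) for the 4 genes on each array, by group, filled where the probe was above background and open where it was not. Cyp26a1 spans 99.6 to 1963.8 on reference pool 1, and Rarb reaches 100 or more on every TCPOBOP array of the standard diet. Rarg stays between 22.6 and 65.4 on reference pool 1 and between 7.9 and 30.7 on reference pool 3.

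Both exposures together, TCPOBOP with the cholesterol diet set against vehicle with the standard diet, gave the same direction for both genes. Cyp26a1 was higher by 1.46 (SE 0.21, 95% interval 1.02 to 1.90, adjusted p = 1.15e-05, limma), or 2.75-fold (2.03 to 3.74), and Rarb by a fitted 0.94 (SE 0.083, 95% interval 0.77 to 1.11, adjusted p = 8.99e-09, limma), each without overlap of the groups. In this comparison 48 of 277 genes were called higher (17.3%) and 38 lower (13.7%), and 38 lay higher without overlap of the groups (13.7%). By plain subtraction the Rarb difference was 1.69, and no fold is given for it. Within the micrometre and the millimetre arrays Cyp26a1 differed by 1.68 and 1.35, and Rarb by 0.78 and 1.02, with adjusted p of 0.0208 or less in each (limma). The TCPOBOP group was 18 weeks old and the vehicle group 19 weeks, so that age and exposure cannot be told apart in this difference.

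Rara, the receptor found in most cells of the body, was above background on 26 of 29 arrays of reference pool 1 and stayed near the reference pool. At 3 SDs above background in place of 2, it was measured on 2 of 6 vehicle and 2 of 6 TCPOBOP arrays on standard diet. On cholesterol diet this was 4 of 5 vehicle, 4 of 6 TCPOBOP and 6 of 6 PCN arrays. The Rara signals on standard diet were thus close to background. Its mean log2 ratio was 0.02 ± 0.15 (SD, n = 6) in vehicle and -0.03 ± 0.08 (SD, n = 6) in TCPOBOP mice on standard diet. On cholesterol diet the vehicle mice had 0.17, -0.12, 0.11, 0.20 and 0.01, TCPOBOP mice ranged from -0.22 to 0.09 with a median of -0.02, and PCN mice from -0.21 to 0.07 with a median of -0.05. All of these ranges overlapped. With TCPOBOP the difference in Rara was -0.06 on standard diet (95% interval -0.20 to 0.09, adjusted p = 0.589, limma) and -0.12 on cholesterol diet (95% interval -0.28 to 0.03, adjusted p = 0.2, limma). These intervals run from 0.869-fold to 1.07-fold and from 0.824-fold to 1.02-fold. In the other comparisons of reference pool 1 its differences lay between -0.12 and 0.05, with adjusted p of 0.476 or more.

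Rarg, the receptor known chiefly from skin, was below background on all 40 arrays, with signals of 22.6 to 65.4 above local background on reference pool 1 and 7.9 to 30.7 on reference pool 3. No fold is given for it. Its fitted adjusted p passed 0.05 for TCPOBOP on standard diet (0.0209, limma) and for both exposures together (0.0199, limma), with fitted differences of -0.12 in both, but no direction was read from signals of this height.

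The diet was compared within vehicle mice, within TCPOBOP mice, and as the difference between the TCPOBOP effects on each diet. In vehicle mice the difference of Cyp26a1, cholesterol minus standard diet, was -0.39 (SE 0.22, 95% interval -0.85 to 0.07), which did not pass (adjusted p = 0.256, limma) while 40 of 277 genes did (14.4%). It passed when only these groups were fitted (adjusted p = 0.025, limma), and the value was -0.13 over the micrometre and -0.50 over the millimetre arrays, neither called. These fits lack vehicle replicate 2 on cholesterol diet. Its deposited log2 ratio of -0.301 lies above the highest deposited one of vehicle mice on standard diet (-0.794). The deposited means, this sample included, were -1.28 on cholesterol and -1.08 on standard diet. In TCPOBOP mice the diet difference of Cyp26a1 was also -0.39 (95% interval -0.83 to 0.05, adjusted p = 0.35, limma), where 12 genes passed (4.33%), and it was 0.27 within the micrometre and -0.72 within the millimetre arrays. Rarb in TCPOBOP mice differed by -0.05 between the diets (95% interval -0.22 to 0.12, adjusted p = 0.839, limma), and in vehicle mice no fold is given, as the cholesterol group was below background on every array and the bound came to 0.855.

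The TCPOBOP effect on Cyp26a1 differed between the diets by 0.0011 (SE 0.31, 95% interval -0.64 to 0.64, adjusted p = 1, limma). The interval covers effects up to 1.56 times larger or 0.642 times as large on cholesterol diet. For Rara this difference was -0.07 (95% interval -0.28 to 0.15, adjusted p = 0.865, limma), and for Rarb it was not read because the vehicle mice on cholesterol diet have only a bound. No gene passed this test after adjustment in limma (0 of 277, 0%), while 35 had an unadjusted p under 0.05 (12.6%).

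**Figure D3:**
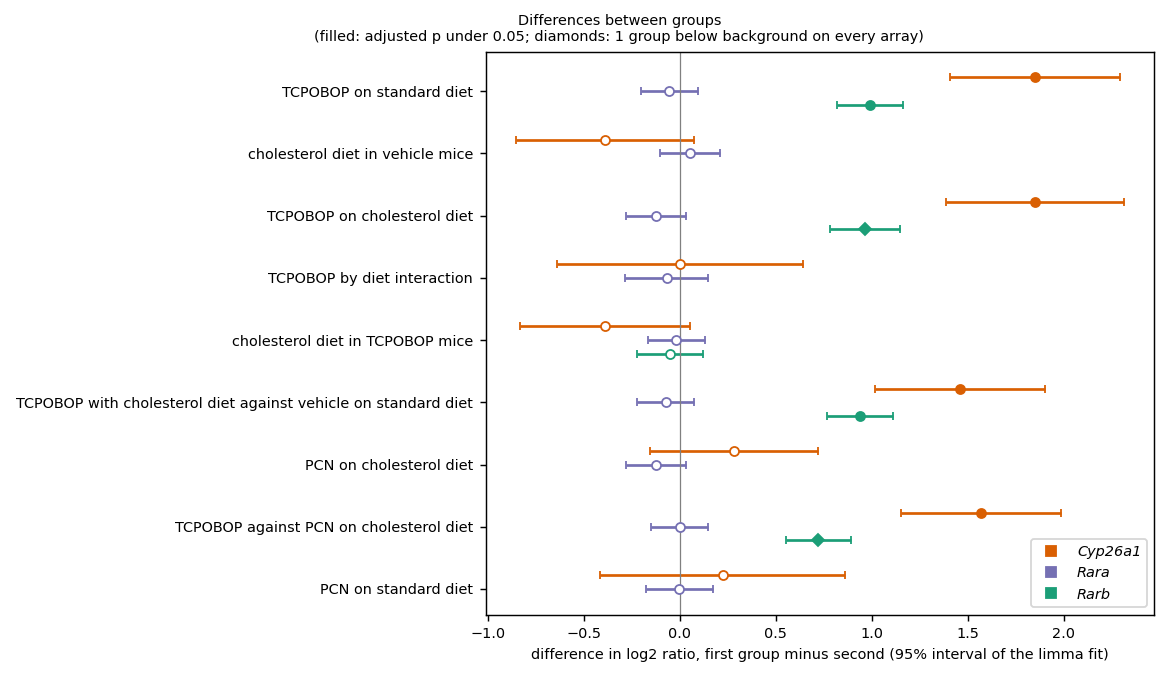
Difference in log2 ratio between groups (horizontal axis) for Cyp26a1, Rara and Rarb in the comparisons made, with 95% intervals from limma as bars, circles filled where the adjusted p is under 0.05, and diamonds where 1 group was below background on every array and only a bound on the fold is given. Cyp26a1 and Rarb lie to the right of 0 in the 4 comparisons of TCPOBOP mice with vehicle or PCN mice, and the intervals of Rara span 0 in all of them. Results below background in both groups, results with a bound under 1 and the Rarb interaction are left out. The fitted Rarb differences of both TCPOBOP groups from vehicle on standard diet are drawn, though no fold is given for them.

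PCN was compared on cholesterol diet on reference pool 1. Cyp26a1 log2 ratios of PCN mice were -1.47 at the lowest, -0.88 at the median and -0.28 at the highest (mean -0.88 ± 0.42, SD, n = 6), which overlapped the vehicle mice. The difference from vehicle was 0.28 (SE 0.21, 95% interval -0.15 to 0.72, adjusted p = 0.581, limma), and it was 0.35 and 0.23 within the micrometre and the millimetre arrays. Only 3 of 277 genes were called in this comparison (1.08%). Rara differed by -0.12 (95% interval -0.28 to 0.03, adjusted p = 0.476, limma). Rarb was below background on all 6 PCN and all 5 vehicle arrays, and no fold is given.

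TCPOBOP and PCN were given at different doses and to mice of different age (18 and 16 weeks), so their values stand beside each other with that difference. Cyp26a1 was higher with TCPOBOP than with PCN by 1.57 (SE 0.20, 95% interval 1.15 to 1.98, adjusted p = 1.59e-05, limma), rank 6 of 277. Rarb was at least 1.36-fold higher, a bound not itself tested, with a mean normalized log2 sample signal of 7.40 in TCPOBOP and 6.78 in PCN mice. Its fitted difference of the log2 ratios was 0.72 (adjusted p = 3.84e-06, limma), and 1.28 with plain subtraction. Neither gene's groups overlapped. In this comparison 43 genes were called higher (15.5%), and 30 lay higher without overlap of the groups (10.8%). Rara differed by -0.00051 (95% interval -0.15 to 0.15, adjusted p = 0.997, limma). Within the micrometre and the millimetre arrays Cyp26a1 differed by 1.46 and 1.62 and Rarb by 0.73 and 0.72, with adjusted p of 0.0399 or less (limma).

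PCN on standard diet was measured on reference pool 3, where the arrays were dimmer. The 5 vehicle mice had Cyp26a1 log2 ratios of -0.39, -0.42, 0.04, -0.45 and 0.08, with 3 of 5 arrays above background, and the PCN mice had -1.11 at the lowest, -0.02 at the median and 0.89 at the highest, with 4 of 6 above background. The PCN mice spread over both sides of the vehicle mice. The difference was 0.22 (SE 0.29, 95% interval -0.42 to 0.86, adjusted p = 0.811, limma), an interval that reaches from 0.749-fold to 1.82-fold, while 7 of 277 genes were called (2.53%). Within the arrays of low and of high spike-in balance between the channels it was 0.24 and 0.19. Rara, above background on 3 of 5 vehicle and 5 of 6 PCN arrays, differed by -0.0021 (95% interval -0.18 to 0.17, adjusted p = 0.995, limma). At 3 SDs above background in place of 2, Rara was measured on 2 of 5 vehicle and 0 of 6 PCN arrays. Its signals here were thus close to background. Rarb had signals of 3.7 to 21.3 above local background and was below background on all 11 arrays.

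Over reference pool 1 the mean Cyp26a1 log2 ratio thus fell in the order TCPOBOP on standard diet (1.07), TCPOBOP on cholesterol diet (0.68), vehicle on standard diet (-0.78), PCN on cholesterol diet (-0.88) and vehicle on cholesterol diet (-1.17). Of these neighbours, TCPOBOP on cholesterol diet and vehicle on standard diet differed, the TCPOBOP groups of both diets did not pass the test, nor did PCN and vehicle on cholesterol diet, and vehicle on standard diet was not compared with PCN on cholesterol diet. Rarb had the order 0.43, 0.38, -0.34, -0.56 and -0.58 for TCPOBOP on standard diet, TCPOBOP on cholesterol diet, PCN on cholesterol diet, vehicle on standard diet and vehicle on cholesterol diet. The last 3 of these were measured near or below background and have no order among them. For Rara the 5 means lay between -0.05 and 0.07.

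Set against each other array by array, the 12 TCPOBOP arrays had Cyp26a1 at 0.13 or more and Rarb at 0.22 or more, and the 17 vehicle and PCN arrays of reference pool 1 had Cyp26a1 at -0.28 or less and Rarb at -0.21 or less. The arrays thus fell into separate clusters by treatment, and no pooled correlation is given.

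**Figure D4:**
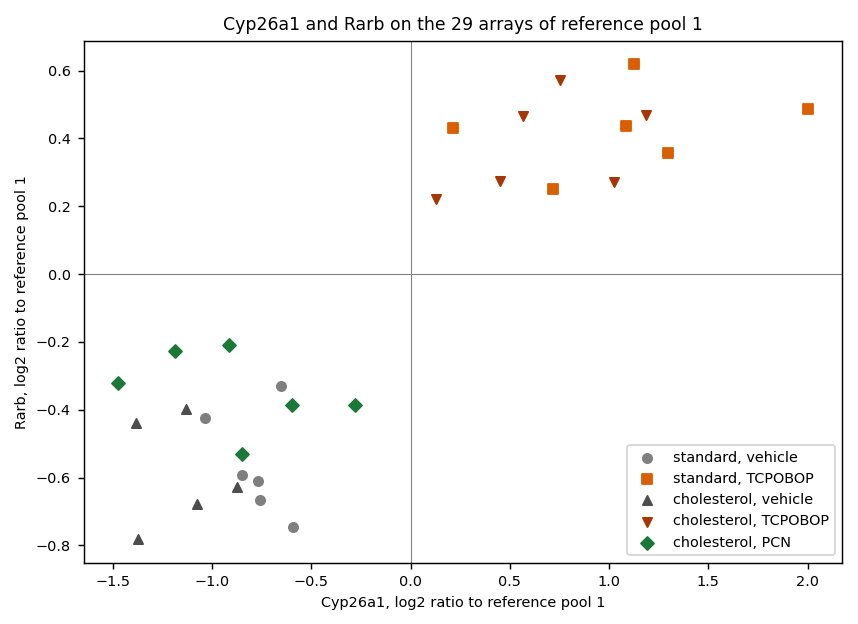
Rarb log2 ratio (vertical axis) against Cyp26a1 log2 ratio (horizontal axis), 1 point for each of the 29 arrays of reference pool 1, coloured by group. The 12 TCPOBOP arrays lie at the upper right, from 0.13 for Cyp26a1 and 0.22 for Rarb, and the 17 other arrays at the lower left.

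Among 194 other genes above background on most of these 29 arrays, those whose log2 ratio ran most like that of Cyp26a1 were Cyp2b10 (Pearson's r 0.925) and its paralog Cyp2b9 (r 0.923), whose cDNAs may bind each other's probes, and Cyp39a1 (r 0.924), an oxysterol 7-alpha-hydroxylase of bile acid synthesis. Scarb1, the HDL receptor, ran most opposite (r -0.941). The 29 points share the reference pool and fall into treatment groups, so these r describe the groups as much as the mice. Rara ran most like Cyp11a1 (r 0.768), Rxra (r 0.701) and Cyp2d22 (r 0.672), and its r with Cyp26a1 was -0.175. Rarb was above background on 12 of these arrays and Rarg on 0, too few for such a comparison.

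Of 39 other genes of retinoid metabolism and transport listed, only Cyp26b1 and Lipe are on the array. Cyp26b1, the paralog of Cyp26a1, was below background on all 40 arrays. Its fit passed as lower with TCPOBOP on standard diet (-0.18, adjusted p = 0.00512, limma), but no direction was read from it. Lipe, a lipase that also acts on retinyl esters, was above background on 10 of 29 arrays of reference pool 1. With TCPOBOP it differed by -0.03 on standard diet (adjusted p = 0.791, limma) and by -0.16 on cholesterol diet (adjusted p = 0.0847, limma). The supply and storage of retinoids were therefore not covered here.

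RXR and the receptors that pair with it were 15 genes on the array. With TCPOBOP on standard diet, where 22% of all genes were called higher and 21.3% lower, 2 passed as higher, 5 as lower and 8 did not pass, with a median difference of -0.05 against -0.0095 over all genes, and 3 of the 15 were below background in both groups. Ppara, the fatty acid sensor, fell by 0.69 (adjusted p = 0.000142, limma), Nr1i3, which encodes CAR, fell by 0.71 (adjusted p = 0.000462, limma), and Nr1i2, which encodes PXR, rose by 0.32 (adjusted p = 0.00049, limma). Rxrb rose by 0.15 (adjusted p = 0.013, limma). Rxrg was called lower (-0.13, adjusted p = 0.013, limma), but it was above background on only 1 of 6 TCPOBOP and 0 of 6 vehicle arrays. Rxra, the main RXR of liver, had -0.12 (adjusted p = 0.483, limma) and passed in none of the 9 comparisons. On cholesterol diet, where 23.1% of all genes were called higher and 14.4% lower, 1 passed as higher, 3 as lower and 11 did not pass. One of the 3, Ppard, was below background in both groups, so no direction is read for it. Among the 11 was Nr1i3 with -0.26 (adjusted p = 0.185, limma). Ppara fell by 0.75 (adjusted p = 0.000126, limma) and Nr1i2 rose by 0.33 (adjusted p = 0.000774, limma).

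Of 6 co-regulators on the array, through which the receptors repress or activate, TCPOBOP on standard diet gave 2 higher, 1 lower and 3 not past the threshold, and on cholesterol diet 2 higher and 4 not past it. Ncor1, a co-repressor of unliganded retinoic acid receptors, rose by 0.18 (adjusted p = 0.0355, limma) and 0.19 (adjusted p = 0.0379, limma). Of 16 orphan and other receptors, 3 were higher and 4 lower on standard diet, and 2 higher and 2 lower on cholesterol diet, beside the shares over all genes just given. Of 9 other P450s of sterols and vitamin D, 6 were higher and 1 lower on standard diet, with a median of 0.20 against -0.0095 over all genes, and 4 were higher on cholesterol diet, with a median of 0.21 against -0.02. Cyp39a1 rose by 0.99 (adjusted p = 1.47e-08, limma) and 0.76 (adjusted p = 1.52e-06, limma), and Cyp27a1, the mitochondrial sterol 27-hydroxylase, by 0.66 (adjusted p = 2.48e-05, limma) and 0.49 (adjusted p = 0.00129, limma). Cyp8b1, the sterol 12-alpha-hydroxylase, fell by 2.04 (adjusted p = 1.51e-05, limma) on standard diet, and its difference of -0.52 on cholesterol diet did not pass (adjusted p = 0.217, limma). With PCN, 1 gene of these lists passed in limma on cholesterol diet and none on standard diet.

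Cebpa, a transcription factor of mature hepatocytes, fell with TCPOBOP by 1.21 (adjusted p = 4.8e-08, limma) on standard and by 0.97 (adjusted p = 2.96e-06, limma) on cholesterol diet, and 1 of the 5 hepatocyte factors on the array was called higher on each diet: Foxa1, which was below background in both groups, on standard diet, and Foxa2 with 0.34 (adjusted p = 0.0118, limma) on cholesterol diet. Of the 12 hepatocyte markers measured, 5 passed as lower and 1 as higher with TCPOBOP on standard diet (21.3% and 22% over all genes), and 2 as lower on cholesterol diet (14.4%). Their summed signal was 135938.7 to 179548.6 in vehicle and 100161.2 to 188826.9 in TCPOBOP mice on standard diet, and 130945.2 to 176432.5 and 105974.2 to 160560.7 on cholesterol diet, ranges that overlap. Of the adipocyte markers, Adipoq and Lep are on the array; Lep was below background throughout. Adipoq was called lower with TCPOBOP on standard diet (-0.12, adjusted p = 0.0391, limma) and with both exposures together (-0.17, adjusted p = 0.00416, limma), not with TCPOBOP on cholesterol diet (-0.08, adjusted p = 0.175, limma). The summed signal of both was 105.7 to 185.7 in vehicle and 98.6 to 327.1 in TCPOBOP mice on standard diet. The part of the cell makeup in the changes of Cyp26a1 and Rarb was not tested.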

How the data were processed

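Per the file headers, the authors deposited for each array the scanner intensity of every spot and its local background in both channels (sample Cy3, reference Cy5), with no background subtraction. The authors also deposited log2 ratios normalized and averaged per probe, which lack many dim probes, among them Rarb in every vehicle and PCN mouse; their normalization is not given in the sources used here, so they served as an alternative only. Of 42 labelled samples, 40 arrays were used: no scanner values of cholesterol diet vehicle replicate 2 were used here, and vehicle replicates 1 and 3 on reference pool 3 held identical scanner values, which were counted once, as replicate 3.

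Background was removed by normexp with an offset of 50, loess was fitted to each array's mouse spots, and replicate spots were averaged. There were 284 mouse probes of 277 genes (of 6 genes with several, the brightest was taken). Names came from the symbol for 220 probes, from a synonym for 50 and from the file alone for 14, and neither the 5 human probes nor the 31 control features were used. limma 3.58.1 in R 4.3.3 (lmFit, eBayes, 1 mean per group) compared groups, with Benjamini-Hochberg adjustment over the 277 genes and a threshold of 0.05. The 4 groups of vehicle and TCPOBOP were fitted together, as were the 3 groups on cholesterol diet, while PCN on standard diet was fitted alone. The study's own class comparison, named here the methods' t-test, was an alternative. No fold is given where neither group had an array with the probe above background, where the bound came to less than 1, or where 1 group had it above background on a single array. Where this held for 1 group, a lower bound is given: the bright group's mean against the mean, per array of the dim group, of the higher of the probe's own signal and the lowest signal above background, per channel after loess and between-array scaling, and open to dye bias as dyes were not swapped. The fits were tested on simulated data. Python 3.11.15, pandas 2.3.3, numpy 2.4.6 and matplotlib 3.10.9 made the tables and plots. Probe names, coordinates and promoter windows came from RefSeq tables of GRCm38.p6.

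The genes named are the 4 chosen by name, members of the lists that passed a comparison, the genes most like each of the 4, and Cyp2b10 and Cyp3a11 as controls of the agonists; Rxra, Lipe, Adipoq and the markers below background were added after their values were seen. Some genes are counted in their lists but not reported here by name. The members and lists were chosen with earlier results of these data known. Same-numbered replicates were not paired: the correlation of their deviations ran from -0.563 to 0.672, and at most 3 of 6 pairs passed 0.1. The number of arrays limits the precision.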

Additional observations from a re-analysis of the deposited data

How the results depend on the processing

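The 8 called results, Cyp26a1 and Rarb in the 4 comparisons with TCPOBOP, were each fitted again under other settings where this could be computed. They kept their direction and passed the threshold in all 279 pairs of a result and a setting. Each result had 12 to 14 settings other than leaving out an array, and 17 or 23 fits without 1 array. These were the deposited log2 ratios (not for Rarb against vehicle or PCN, where they hold no value), no or plain background subtraction, median centring, the median over spots, dim probes left out, the methods' t-test, other groups in the fit, array weights, a replicate block, blocks and splits by batch, and each array left out. Some of these settings could not change the difference, only its p. They include the methods' t-test, other groups in the fit, and the leaving out of an array from a fitted group outside the comparison. The replicate block and the block by unit of spot position are also among them in comparisons without vehicle mice on cholesterol diet. There, both groups hold the same replicate numbers and the same split of units. Without 1 array, Cyp26a1 ran from 1.66 to 2.02 with TCPOBOP on standard and from 1.75 to 1.96 on cholesterol diet, and Rarb from 0.95 to 1.04 and from 0.92 to 1.01.

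Results that had not passed moved more. Cyp26a1 for the diet in vehicle mice (-0.39) passed with the methods' t-test (adjusted p = 0.0448 against 0.256 in limma over 277 genes) and with only its groups fitted (-0.39, adjusted p = 0.025, limma), its adjusted p ranging from 0.025 to 0.869; the cause was not tested. With the deposited log2 ratios, the signs turned for Rara in the diet comparison in vehicle mice (-0.00475), in TCPOBOP mice (0.17), in the interaction (0.18) and for TCPOBOP against PCN (0.10), for Cyp26a1 in the interaction (-0.20) and with PCN on cholesterol diet (-2e-04), and for Rarb by diet in TCPOBOP mice (0.27). Median centring turned the latter to 0.017 and Rara for TCPOBOP against PCN to 0.028, as did the median over spots (0.019) and the millimetre arrays (0.018). Within the millimetre arrays the Cyp26a1 interaction was -0.22, and within the micrometre arrays the diet difference in TCPOBOP mice was 0.27 for Cyp26a1 and 0.012 for Rara. Rara with PCN on standard diet was 0.022 under plain subtraction, 0.016 with the spike balance as a block, 0.054 within high spike balance and 0.033 with the replicate number as a block. The replicate block changed no call of the 4 genes. For TCPOBOP on standard diet it could not change the difference, only its p, as both groups hold the same replicate numbers. Leaving out 1 array turned signs for the Cyp26a1 interaction (-0.17 to 0.19) and for Rara with PCN on standard diet (-0.055 to 0.033), for TCPOBOP against PCN (-0.033 to 0.033) and by diet in TCPOBOP mice (-0.045 to 0.016). None of these passed the threshold, and the cause was not tested.

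Counts over all genes moved by over 1.5 times mainly where fewer arrays or genes were tested. TCPOBOP on standard diet called 120 of 277 genes, 74 of 197 with the deposited ratios and 33 (25 higher, 8 lower) within the micrometre arrays. On cholesterol diet the counts were 104, 68 of 201 and 25 (19 higher, 6 lower), and for TCPOBOP against PCN 76, 49 of 190 and 22. TCPOBOP with cholesterol diet called 86 against vehicle with standard diet, and 38 within the micrometre arrays. The diet in vehicle mice called 40 and, within the micrometre arrays, 0; in TCPOBOP mice it called 12, and 0 to 23 under the alternatives. The interaction called 0 and at most 6. PCN called 3 on cholesterol diet (0 to 13) and 7 on standard diet, and there 1 with the replicate block and 0 with median centring. At 3 SDs above background in place of 2, Cyp26a1 was measured on 3 of 5 vehicle arrays on cholesterol diet, and Rarb on 0 of 6 vehicle and 5 of 6 TCPOBOP arrays on standard diet and 3 of 6 TCPOBOP arrays on cholesterol diet. Signal over background thus limits Rarb to a bound on cholesterol diet and Rarg to no value.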

Other observations

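Vehicle replicate 2 on cholesterol diet, of which no scanner values were used, has deposited log2 ratios of -0.30 for Cyp26a1 and -0.12 for Rara and none for Rarb or Rarg. The authors' deposited log2 ratios of Cyp26a1 had a mean of -1.28 over the 5 vehicle samples on this diet that carry one, this sample included.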
